A study of Mus musculus with 40 samples.

Results

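The conjugation enzymes are 69 protein-coding mouse genes: every gene whose symbol starts with Gst or Mgst (26 glutathione S-transferases, GST), Ugt followed by a digit (22 UDP-glucuronosyltransferases, UGT) or Sult (21 sulfotransferases, SULT). They were picked by symbol alone from the 55359 genes counted in kidney RNA. The rule uses no measured value, but it and the gene lists below were chosen with earlier results of these data known. The data are bulk RNA sequencing of right kidneys from 40 male C57BL/6 mice (C57BL/6NCrl in the series' design text), 5 in each of 8 groups. One group was gavaged with sesame oil, the vehicle, and the others with TCDD (2,3,7,8-tetrachlorodibenzo-p-dioxin, a long-lived ligand of the aryl hydrocarbon receptor) in sesame oil at 0.03, 0.1, 0.3, 1, 3, 10 or 30 µg/kg. Every mouse was gavaged every 4 days for 28 days, 7 times in all, from an age of 30 days, and its kidney was taken at 58 days. All groups thus share strain, sex, age, gavage and oil, and differ by label in the dose only. The labels list each library as a sample of its own and name no cages or batches, so p-values measure the spread between these samples. Replicate numbers follow the order of deposit and pair no libraries across groups.

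Conjugation makes a foreign or endogenous small molecule more water-soluble by joining it to a carrier. GSTs add glutathione to electrophiles, and the product is trimmed at the brush border of the proximal tubule and excreted as a mercapturate. UGTs of the endoplasmic reticulum add a sugar, most often glucuronic acid, and SULTs of the cytosol add sulfate from the donor PAPS. In liver, textbook targets of the aryl hydrocarbon receptor among them include Gsta1, Ugt1a1 and Ugt1a6, and several GST genes also answer to the transcription factor NRF2. The proximal tubule holds most of the conjugating capacity of the kidney.

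Gene counts summed to between 15278423 and 25575317 per library, and levels are given as CPM, counts scaled to a common library size. Markers of the proximal tubule were high in every vehicle kidney: the 10 S1-S2 markers summed to 20791 to 25463 CPM, whereas 8 of 9 adrenal markers were at or under 3 counts in every vehicle library. They were higher in 3 treated kidneys: the 9 adrenal markers summed to 819.6 CPM in replicate 1 at 0.03 µg/kg, 856 CPM in replicate 4 at 1 µg/kg and 44.0 CPM in replicate 2 at 3 µg/kg, and to at most 8.81 CPM in the other 37 libraries. Without those 3 libraries, an alternative chosen after seeing the data, no member was called from 0.03 to 3 µg/kg. In that fit 5 were called at 10 µg/kg, 19 at 30 µg/kg (Gstt1 lost, Gsta1 and Sult2a3 gained), 9 between 30 and 10 µg/kg and 20 in the trend. The filter on low counts was run anew on the libraries kept, and it let in Gsta1 and Sult2a3, which it left out with all libraries. Both were also gained at 30 µg/kg when only vehicle replicate 2, 3, 4 or 5, or only replicate 1 or 2 of the 30 µg/kg group, was left out. Within the vehicle group, replicates 1 and 2 stood apart from replicates 3 to 5 for several of the genes below. The summed level of 10 markers of the S3 segment, the last part of the proximal tubule, was 3428 and 3692 CPM in those libraries and 5889 to 6729 CPM in the others. This was not particular to S3. Their sums were also lower for the thick ascending limb (954 and 1105 against 1801 to 2929 CPM), collecting duct, macrophages and liver (86.1 and 91.8 against 178 to 242 CPM). They were higher for S1-S2 (25130 and 25463 against 20791 to 21450 CPM), distal convoluted tubule and adipocytes. Podocyte, endothelial and adrenal sums overlapped. The libraries of the 30 µg/kg group also spread widely, with replicates 1 and 2 closest to vehicle for many members. No library was left out of the values below. Leaving out vehicle replicates 1 and 2 as a pair was also chosen after seeing the data, and where it changed a call this is stated.

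Of the 69 members, 42 had enough counts to be tested (22 GST, 13 UGT and 7 SULT), among 17345 tested genes. Of the 27 that were not, 10 had no count in any library: Sult1c1, Sult2a2, Sult2a4, Sult2a5, Sult2a6, Sult2a7, Sult3a1, Sult3a2, Ugt2a1 and Ugt2a2. The other 17 had counts in at least 1 library: Gsta1, Gstm3, Gstp3, Gstt4, Sult1e1, Sult2a1, Sult2a3, Sult2a8, Sult4a1, Sult6b2, Ugt1a1, Ugt1a5, Ugt1a8, Ugt1a9, Ugt2b1, Ugt2b35 and Ugt2b36. Only Sult6b1 would have failed the filter without the 30 µg/kg group. It was not highest there: it reached 0.568 CPM at 30 µg/kg and 0.993 CPM in replicate 2 at 3 µg/kg. Whether it would also fail without another single group was not tested. A count of 0 in a library of this depth allows up to 3 counts. Reads carry no molecular identifiers, so count-based limits cover counting error only.

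In vehicle kidneys, transcript levels per length, in CPM per kilobase of exonic sequence not shared with another gene, differed widely between members of each family. Among UGTs the highest were Ugt3a2 (441 ± 40.2 CPM per kb, SD, n = 5) and Ugt2b38 (435 ± 68.8), whose ranges overlapped, followed by the gene counted as Ugt1a7c (96.6), whose reads may include other Ugt1a transcripts. Enzymes of the Ugt3 family use sugars other than glucuronic acid, whereas Ugt2b enzymes glucuronidate steroids and drugs. Among GSTs, Gstm1 (302 ± 69.1 CPM per kb) and Gsta2 (153 ± 54.9) led, with Gstm5 next at 88.9 ± 6.03. Sult1d1, an amine and phenol sulfotransferase, carried 77.9% of the summed per-length level of its family (232 ± 25.1 CPM per kb). Sult1c2 (54.2 ± 6.08) and Sult1a1 (8.77 ± 0.386), the main phenol sulfotransferase, followed.

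**Figure D1:**
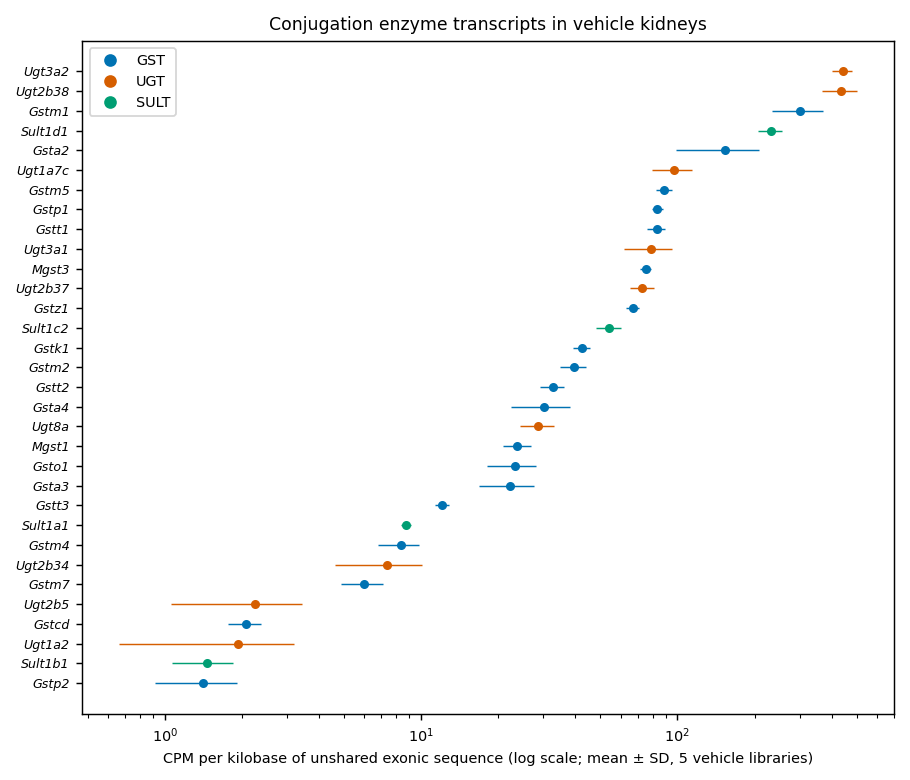
Level per length of the 32 members at or above 1 CPM per kilobase of unshared exonic sequence in vehicle kidneys (x axis, log scale; mean ± SD of 5 libraries), coloured by family. Ugt3a2 and Ugt2b38 sit highest, and Sult1d1 stands far above the other sulfotransferases.

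Calls fell at the 2 highest doses. At 30 µg/kg, 13 of the 42 tested members rose and 5 fell (42.9%), where 15.9% of all tested genes were called (8.39% higher and 7.55% lower). By family, 9 GSTs rose and 1 fell, 3 UGTs rose and 3 fell, and 1 SULT rose and 1 fell. The median log2 fold change of the tested members was 0.07, beside 0.01 over all tested genes. It was 0.17 over the GSTs, -0.05 over the UGTs and 0.17 over the SULTs. Calls here and below are from edgeR's quasi-likelihood test with Benjamini-Hochberg adjusted p under 0.05 over all 17345 genes.

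At 10 µg/kg, 5 members were called (11.9%, where 4.82% of all tested genes were called). Gsta3, Gstm1, Gstp1 and Ugt1a10 rose (3.82% of all genes did) and Gstt1 fell (0.997% of all genes did). The same 5 were called with unchanged signs at 30 µg/kg, in a comparison that shares the vehicle libraries. No member was called at 0.03, 0.1, 0.3, 1 or 3 µg/kg with edgeR, where 0, 0, 0.00577, 0.513 and 1.09% of all genes were. At those doses 5, 1, 3, 3 and 6 members had an unadjusted p under 0.05, and DESeq2 called none but 1, Gstm1 at 3 µg/kg. At 10 µg/kg DESeq2 called the same 5 and Gstz1, and a model of only the vehicle and 10 µg/kg libraries also called 5, with Ugt2b38 (adjusted p = 0.0390) in place of Gsta3 (adjusted p = 0.0616). Between 30 and 10 µg/kg directly, a contrast without vehicle libraries, 9 members differed (21.4%, against 2.7% of all genes). Gsta2, Gsta4, Gsto1, Gstt2, Mgst1, Ugt1a10 and Ugt1a2 were higher at 30 µg/kg (1.19% of all genes were) and Ugt8a and Ugt3a2 lower (1.52% of all genes). A fit to the 10 libraries of the 2 highest doses alone called none of these, with 13 at an unadjusted p under 0.05, while DESeq2 on all libraries called 11. Without replicate 1 of the 30 µg/kg group, the count of members called between 30 and 10 µg/kg was 16.

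Over the rank of all 8 doses, 18 members trended (42.9%, where 19.8% of all genes did), 11 upwards (11.0% of all genes) and 7 downwards (8.84%). Ugt1a7c upwards and Ugt3a1 and Gstz1 downwards were called in the trend only. Sult5a1, Ugt1a6a and Mgst3 were called at 30 µg/kg and not in the trend. Without the 30 µg/kg group the trend called 5 members: Gsta3, Gstm1, Gstp1 and Ugt1a10 upwards and Sult1c2 downwards. At 30 µg/kg the lowest and highest libraries did not overlap with vehicle for 10 of the 42 members (6.41% of all genes), namely Gsta2, Gsta3, Gsta4, Gstm1, Gstp1, Mgst1, Mgst3, Ugt1a10, Ugt1a2 and Ugt8a. The same held for 4 members at 10 µg/kg (6.15% of all genes) and for 4 between 30 and 10 µg/kg (1.76%).

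**Figure D2:**
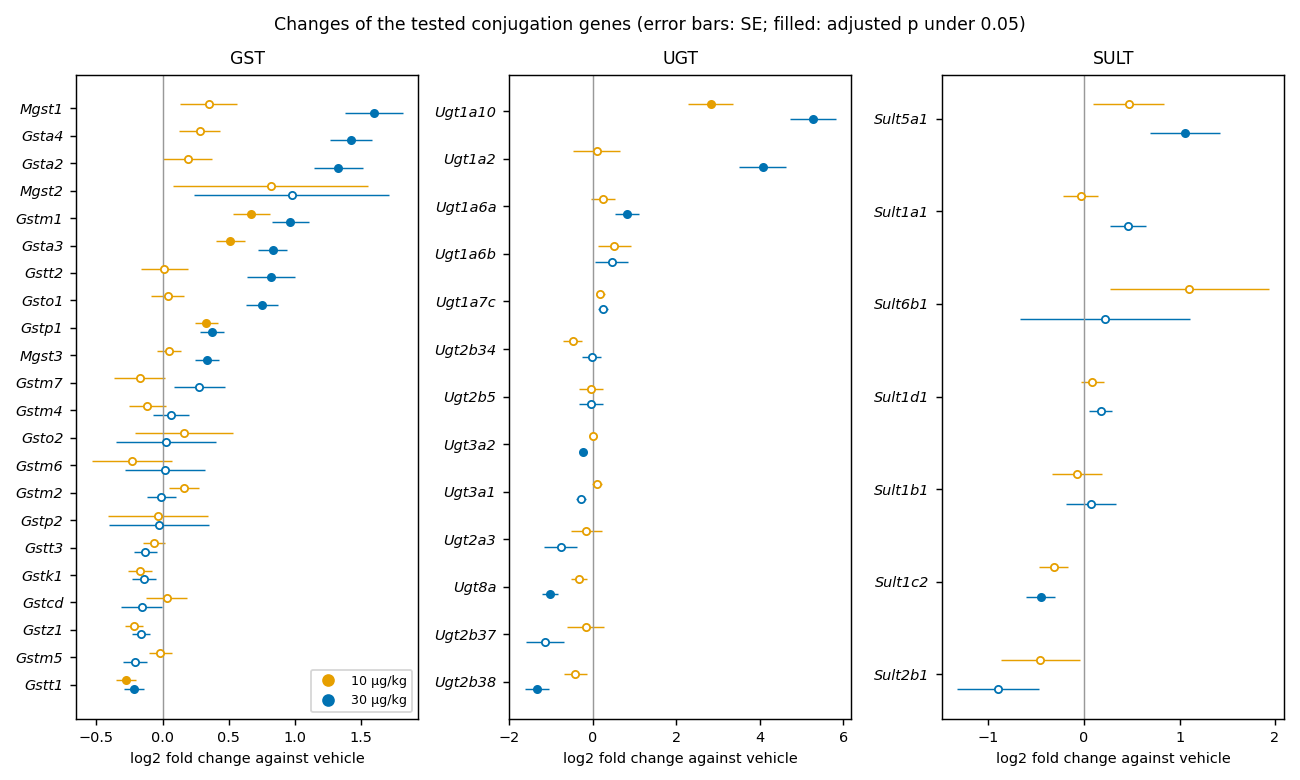
Fitted log2 fold change against vehicle (x axis, with SE) of the 42 tested members at 10 and 30 µg/kg, by family; filled points had an adjusted p under 0.05. The UGT panel holds both the largest rises (Ugt1a10 and Ugt1a2) and the deepest falls, and its x axis is wider than the others.

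The alpha class GSTs reduce organic peroxides and conjugate the aldehydes that come from lipid peroxidation, which Gsta4 handles best. All 3 tested alpha members rose at 30 µg/kg. Gsta2 was at 250.01, 251, 127, 127 and 147 CPM in vehicle replicates 1 to 5 and at 302, 368, 657, 498 and 442 CPM in the 30 µg/kg libraries. Every treated library lay above every vehicle library, and vehicle replicates 1 and 2 lay far above the other 3. Against vehicle, Gsta2 rose by a log2 fold change of 1.33 (SE 0.19, adjusted p = 4.14e-06, edgeR), or 1.76 without that vehicle pair. The group means from 0.03 to 3 µg/kg stayed below the vehicle mean of 181 ± 64.6 CPM, at 133 ± 15.5, 151 ± 16.9, 153 ± 22.0, 133 ± 23.2 and 136 ± 18.9 CPM, and 206 ± 26.4 CPM at 10 µg/kg (SD, n = 5 each). At 10 µg/kg the call was reached without the vehicle pair and not with it.

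Gsta4 was at 49.4, 48.7, 33.8, 31.2 and 28.7 CPM in vehicle and at 64.7, 89.0, 129, 137 and 94.9 CPM at 30 µg/kg. The groups did not overlap, and the rise was again graded over the treated libraries, lowest in replicate 1. Its log2 fold change was 1.42 (SE 0.16, adjusted p = 4.15e-08, edgeR), or 1.71 without vehicle replicates 1 and 2. At 10 µg/kg the mean was 46.6 ± 4.26 CPM against 38.4 ± 9.92 in vehicle, a difference that was called only without that vehicle pair. Gsta3 was called at both 10 and 30 µg/kg. Its vehicle libraries held 128, 114, 73.0, 84.9 and 83.3 CPM, the 10 µg/kg libraries 143, 159, 129.98, 133 and 124 CPM, and the 30 µg/kg libraries 148, 165, 197, 186 and 165 CPM. One vehicle library reached the range of the 10 µg/kg group, and none that of the 30 µg/kg group. The log2 fold changes were 0.51 (SE 0.11, adjusted p = 0.00167) and 0.83 (SE 0.11, adjusted p = 5.56e-07, both edgeR), the second 1.09 without the vehicle pair.

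Gsta1, the alpha gene best known as a target of the aryl hydrocarbon receptor in liver, did not pass the count filter. It was at 0.114, 0.396, 4.00, 12.4 and 9.32 CPM in the 5 libraries at 30 µg/kg, and no library of any other group exceeded 0.634 CPM. Replicates 3, 4 and 5 stood above all other libraries, and the highest count was 244. Without the filter on low counts the gene was called higher at 30 µg/kg. Its coding sequence is 97.47% identical to that of Gsta2, and 80.6% of its 100-base stretches also occur in Gsta2, Gm3776 or Gm10639, against 28.4% of those of Gsta2. Reads that map to several places were left out by the counting, so the level of either gene is uncertain, and how reads were split between them was not tested.

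Of the 6 tested mu class members, only Gstm1 was called. It was at 332, 338, 512, 545 and 498 CPM in vehicle, at 677, 777, 676, 777 and 635 CPM at 10 µg/kg, and at 776, 617, 733, 1307 and 911 CPM at 30 µg/kg. Both treated groups lay wholly above vehicle and overlapped each other. Group means climbed over the whole dose range, from 445 ± 102 CPM in vehicle through 513 ± 41.2, 539 ± 45.6, 551 ± 57.2, 573 ± 62.9 and 606 ± 65.8 at 0.03 to 3 µg/kg, to 708 ± 64.7 and 869 ± 267 CPM at 10 and 30 µg/kg. The low vehicle mean rested on replicates 1 and 2, where this gene was low and the alpha genes high. Gstm1 rose by a log2 fold change of 0.67 (SE 0.14, adjusted p = 0.00163) at 10 µg/kg and 0.97 (SE 0.14, adjusted p = 6.46e-06, both edgeR) at 30 µg/kg. Without the vehicle pair it was 0.74 at 30 µg/kg, still called, and the call at 10 µg/kg was lost. Gstm2, Gstm4, Gstm5, Gstm6 and Gstm7 had log2 fold changes from -0.21 (Gstm5) to 0.28 (Gstm7) at 30 µg/kg and were not called.

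Gstp1, the pi class enzyme, held 119.6, 128, 135, 136 and 128 CPM in the vehicle libraries, 182, 171, 158, 162 and 142 CPM at 10 µg/kg, and 173, 139, 139, 215 and 173 CPM at 30 µg/kg. Treated libraries lay above all vehicle libraries at both doses, and the step from 10 to 30 µg/kg was 0.04 on the log2 scale (SE 0.09, adjusted p = 0.905, edgeR). Against vehicle the log2 fold change was 0.33 (adjusted p = 0.0160) at 10 and 0.37 (adjusted p = 0.00208, both edgeR) at 30 µg/kg. The call at 10 µg/kg was lost when vehicle replicate 1, treated replicate 1 or 2, or the vehicle pair was dropped. Gstp2, whose coding sequence is 98.1% identical to that of Gstp1, had group means of 1.02 to 1.76 CPM and was not called. Of the 100-base stretches of Gstp1, 25.1% recur in Gstp2 or a pseudogene, so its level is uncertain as well.

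The theta class split. Gstt2 was at 127, 117, 149.6, 136 and 149 CPM in vehicle and at 122, 157, 379, 345 and 196 CPM at 30 µg/kg. Replicate 1 lay within the vehicle range and replicate 3 was highest. Gstt2 rose by 0.82 on the log2 scale (SE 0.18, adjusted p = 0.00135, edgeR). Its change was 0.01 at 10 µg/kg, and a model of only these 10 libraries did not call it (adjusted p = 0.156). Its trend call was lost without the vehicle pair. Gstt1, which conjugates small halogenated compounds, was lower, at 142, 133, 118, 122 and 119.7 CPM in the vehicle libraries, 114, 96.9, 107, 107 and 98.7 CPM at 10 µg/kg and 97.2, 120.3, 127, 105 and 96.5 CPM at 30 µg/kg. The 10 µg/kg libraries lay wholly below vehicle, and those at 30 µg/kg overlapped it. Its log2 fold changes of -0.28 (adjusted p = 0.0185) and -0.22 (adjusted p = 0.0422, both edgeR) lost their calls when single libraries were left out: at 10 µg/kg when vehicle replicate 1 or 2 or treated replicate 2 or 5 was dropped, and at 30 µg/kg when vehicle replicate 1 or 2 or treated replicate 1, 4 or 5 was. Without the vehicle pair the adjusted p at 30 µg/kg was 0.332, and the calls at 10 µg/kg and in the trend were lost as well. Gstt3 was not called (log2 fold change -0.13).

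Mgst1 and Mgst3 are membrane-bound enzymes of a separate superfamily that also reduce lipid hydroperoxides. Mgst1 was at 56.5, 51.7, 43.5, 43.2 and 44.4 CPM in vehicle and at 59.1, 81.3, 229, 195 and 159 CPM at 30 µg/kg. The groups did not overlap, yet replicate 1 exceeded the highest vehicle library by little while replicates 3 to 5 lay far above it. Its log2 fold change was 1.60 (SE 0.22, adjusted p = 3.51e-06, edgeR), the largest among the 22 tested GSTs, and 0.35 (adjusted p = 0.478) at 10 µg/kg. Mgst3 was at 84.4, 87.7, 77.5, 83.7 and 79.1 CPM in vehicle and at 93.0, 90.6, 109.5, 115 and 112 CPM at 30 µg/kg, a small separation without overlap (log2 fold change 0.33, SE 0.09, adjusted p = 0.00767). Mgst2 had few counts and a wide error (log2 fold change 0.97, SE 0.74, not called).

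Gsto1, an omega class enzyme that reduces arsenic species, was at 57.0, 57.5, 35.4, 39.1 and 45.4 CPM in vehicle and at 53.5, 70.9, 109.5, 82.5 and 78.0 CPM at 30 µg/kg. Replicate 1 of the treated group fell within the vehicle range. Gsto1 rose by 0.75 on the log2 scale (SE 0.12, adjusted p = 2.35e-05, edgeR), or 0.98 without vehicle replicates 1 and 2. Gsto2, Gstk1, Gstcd and Gstz1 were not called at any dose with edgeR on all libraries. At 10 µg/kg Gstz1 was called by DESeq2, and by edgeR without vehicle replicate 2 or without replicate 1 of that group. Gstz1, which isomerises maleylacetoacetate in tyrosine breakdown, trended downwards by 0.03 on the log2 scale per dose rank (adjusted p = 0.0159, edgeR), from 299 ± 16.5 CPM in vehicle to 257 ± 20.0 and 267 ± 28.3 CPM at 10 and 30 µg/kg.

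**Figure D3:**
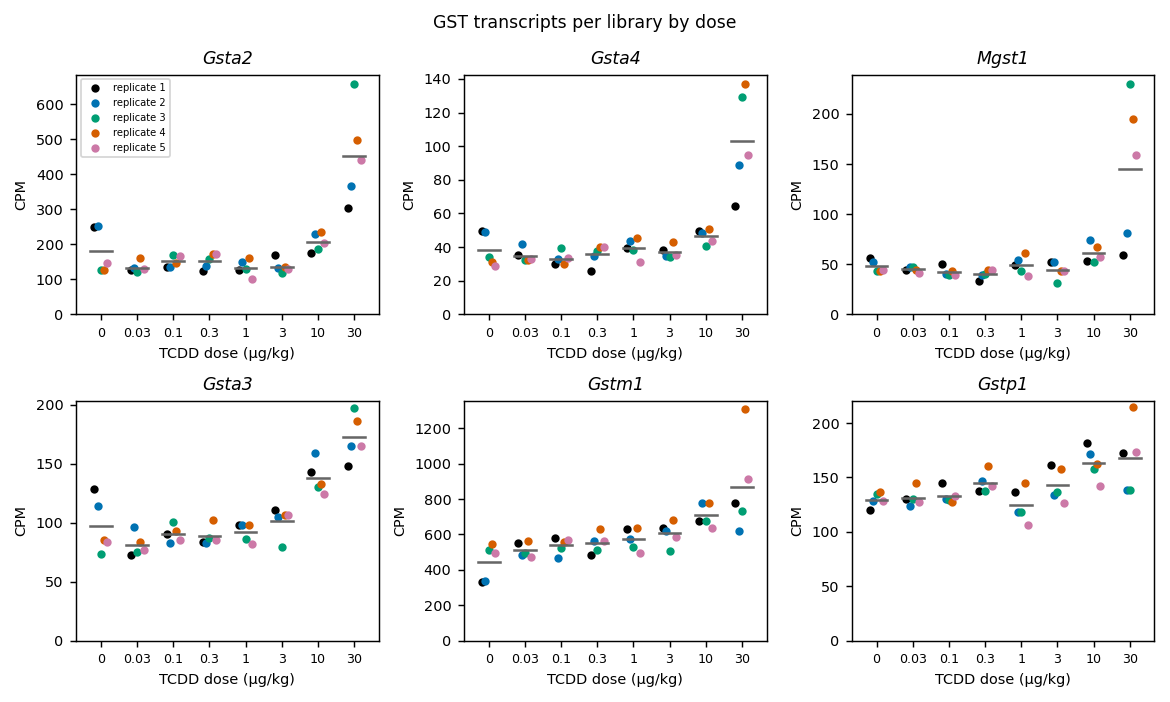
CPM (y axis, linear) of 6 glutathione S-transferases in each library against the TCDD dose in µg/kg (x axis; 0 is vehicle); points are libraries coloured by replicate number, grey lines are group means. Gsta2, Gsta4 and Mgst1 climb mainly at 30 µg/kg, whereas Gsta3, Gstm1 and Gstp1 are already higher at 10 µg/kg; vehicle replicates 1 and 2 sit high for the alpha genes and low for Gstm1.

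The promoters of the responding GSTs show where 2 recognised sequence elements do and do not occur. RefSeq windows on GRCm38.p6 were matched for 61 of the 69 members, and the 250 bases before the start were searched on both strands for GCGTG, the core bound by the aryl hydrocarbon receptor, and TGACNNNGC, the core bound by NRF2. GCGTG occurred in 4 of the 11 members with a window that rose at 30 µg/kg (Gsta2, Gstm1, Gstp1 and Mgst3), in 1 of 4 that fell (Ugt8a) and in 5 of 23 that were not called. It occurred in 28.2% of all 32851 windows. For both elements a member with several windows counted if any of them held a match, whereas the share of all windows takes each window singly. TGACNNNGC occurred in 2 of 11 that rose (Gsta3 and Mgst1), 0 of 4 that fell, 2 of 23 not called and 10.2% of all windows. Neither element occurred in the windows of Ugt1a10 and Ugt1a2, the members with the largest rises. The 4 below are shown because they hold a match in the most responsive GSTs; each is 5′ to 3′ in the direction of transcription, ends at the base before the start, and has the match in capitals. A match is a description of these letters and not a binding site.
Gsta2 (chr9:78347146-78347395, minus strand, GCGTG): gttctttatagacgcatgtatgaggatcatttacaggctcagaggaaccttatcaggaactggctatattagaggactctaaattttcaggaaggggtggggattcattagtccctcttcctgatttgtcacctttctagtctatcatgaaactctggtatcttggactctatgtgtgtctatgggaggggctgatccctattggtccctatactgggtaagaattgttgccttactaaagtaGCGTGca
Gstm1 (chr3:108017974-108018223, minus strand, GCGTG): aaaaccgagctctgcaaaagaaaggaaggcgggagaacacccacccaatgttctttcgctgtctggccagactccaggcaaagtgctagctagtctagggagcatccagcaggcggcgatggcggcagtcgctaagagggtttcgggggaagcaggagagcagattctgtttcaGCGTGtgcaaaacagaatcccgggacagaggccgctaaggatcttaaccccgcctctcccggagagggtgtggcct
Gsta3 (chr1:21240335-21240584, plus strand, TGACNNNGC): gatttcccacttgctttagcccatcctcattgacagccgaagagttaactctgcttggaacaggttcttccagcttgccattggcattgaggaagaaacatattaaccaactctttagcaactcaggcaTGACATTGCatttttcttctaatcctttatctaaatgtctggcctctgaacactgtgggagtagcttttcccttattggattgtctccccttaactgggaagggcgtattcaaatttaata
Mgst1 (chr6:138140277-138140526, plus strand, TGACNNNGC on the other strand): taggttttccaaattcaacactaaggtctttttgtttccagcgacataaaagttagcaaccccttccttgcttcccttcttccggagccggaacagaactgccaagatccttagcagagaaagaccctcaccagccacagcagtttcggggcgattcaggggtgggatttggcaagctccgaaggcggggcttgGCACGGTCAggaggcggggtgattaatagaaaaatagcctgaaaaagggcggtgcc
The Gsta2 and Gstm1 matches lie 7 and 76 bases before the start, and those of Gsta3 and Mgst1 lie 121 and 56 bases before it. Gsta4, Gstt2 and Ugt3a2 had no window.

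The Ugt1a locus on chromosome 1 makes its enzymes by joining one of several first exons to a common set of later exons. All 9 Ugt1a genes share the last 740 bases of their coding sequence, which is 46.02 to 46.63% of each. The sequences around that junction are shown for 5 of them in GENCODE M21, with the last 40 bases of the gene's own first exon in lower case and the first 20 shared bases in capitals. They show why a read that lies in the capitals, or further on, names no single gene.
Ugt1a10: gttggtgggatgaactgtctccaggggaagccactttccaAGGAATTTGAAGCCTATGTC
Ugt1a7c: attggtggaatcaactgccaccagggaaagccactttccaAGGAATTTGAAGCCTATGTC
Ugt1a2: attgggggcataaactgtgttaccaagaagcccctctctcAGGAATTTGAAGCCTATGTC
Ugt1a5: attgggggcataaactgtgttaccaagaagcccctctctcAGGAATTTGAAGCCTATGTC
Ugt1a6a: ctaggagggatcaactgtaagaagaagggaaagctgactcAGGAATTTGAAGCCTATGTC
Ugt1a2 and Ugt1a5 match over the whole printed stretch, and their own coding parts are 81.32% identical. Those of Ugt1a2 and Ugt1a10 are 54.85% identical, and those of Ugt1a10 and Ugt1a7c 80.75%. The counting set aside reads that overlap several genes as ambiguous, so what is counted for a Ugt1a gene comes from bases that no other gene covers.

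Which bases those are differs by gene. In GENCODE M21, Ugt1a10 and Ugt1a2 have 809 and 900 such bases, all before the common exons, so their counts read their own first exons. Ugt1a7c has 917 before the common exons and 998 at the far end of the locus, beyond the other members' ends, where a read could stem from a transcript with any first exon. Ugt1a6a has 222 before the common exons and 1920 after they start, since 859 bases of its first exon are shared with a Ugt1a7c transcript. The annotation used by the authors is not given in the sources used here, so the counted bases may differ. Levels of Ugt1a7c and Ugt1a6a are therefore not read as levels of those isoforms.

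Ugt1a10 rose most of all members. It was at 0.576, 0.861, 0.302, 0.789 and 1.25 CPM in vehicle (7 to 22 counts), at 2.31, 9.89, 6.18, 5.02 and 3.09 CPM at 10 µg/kg and at 9.49, 6.50, 30.0, 42.8 and 55.4 CPM at 30 µg/kg (115 to 1450 counts). No library of either treated group overlapped vehicle, and the highest library at 10 µg/kg exceeded the lowest pair at 30 µg/kg. Ugt1a10 rose by 2.82 on the log2 scale (SE 0.54, adjusted p = 6.51e-04) at 10 and by 5.27 (SE 0.55, adjusted p = 2.36e-08) at 30 µg/kg, and the step between these doses was 2.45 (SE 0.45, adjusted p = 0.00226, all edgeR). From vehicle to 3 µg/kg the group means were 0.755 ± 0.350, 0.648 ± 0.309, 0.899 ± 0.278, 0.788 ± 0.440, 0.977 ± 0.533 and 1.35 ± 0.733 CPM (SD, n = 5).

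Ugt1a2 responded at the highest dose. Its vehicle libraries held 3.28, 2.58, 0.734, 0.789 and 1.30 CPM (12 to 57 counts), the 10 µg/kg libraries 0.916, 2.11, 2.04, 2.31 and 1.87 CPM, and the 30 µg/kg libraries 4.54, 9.27, 68.0, 42.8 and 21.9 CPM. All treated libraries at 30 µg/kg lay above vehicle, but they spanned a wide range, and vehicle replicates 1 and 2 were again the highest of their group. The log2 fold change was 4.07 (SE 0.57, adjusted p = 3.88e-06) against vehicle and 3.97 (adjusted p = 1.62e-04, both edgeR) against 10 µg/kg. It was 3.48 without replicate 3 of the 30 µg/kg group and 4.95 without vehicle replicates 1 and 2, with a call each time.

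Ugt1a6a, whose human counterpart conjugates planar phenols, was at 1.44, 2.53, 2.59, 2.17 and 1.64 CPM in vehicle and at 2.56, 2.54, 3.53, 6.23 and 3.67 CPM at 30 µg/kg, with replicates 1 and 2 inside the vehicle range. Its log2 fold change of 0.83 (adjusted p = 0.0436, edgeR) was lost without vehicle replicate 1, 4 or 5, or replicate 3, 4 or 5 of the 30 µg/kg group, and without the vehicle pair (adjusted p = 0.138). Ugt1a7c held most of the counts of the locus, 185 ± 32.7 CPM with vehicle and 219.9 ± 48.8 CPM with 30 µg/kg. It trended upwards (adjusted p = 0.0119, edgeR), its log2 fold change at 30 µg/kg was 0.25 (adjusted p = 0.120), and 0.40 with a call without the vehicle pair. Ugt1a6b was not called (log2 fold change 0.45, SE 0.39). Ugt1a1, the bilirubin enzyme, was not tested, with 0.346, 0.253, 0.0432, 0 and 0.113 CPM with vehicle and 0, 0.339, 1.08, 1.46 and 0.420 CPM with 30 µg/kg. Its sense-strand counts passed the filter and were called higher. Ugt1a5, Ugt1a8 and Ugt1a9 reached at most 7, 4 and 16 counts in any library.

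Of the 8 tested UGTs outside the Ugt1a locus, 3 fell at 30 µg/kg (Ugt2b38, Ugt8a and Ugt3a2) and none rose. Ugt2b38 was at 871, 865, 903, 884 and 592 CPM in vehicle, at 672, 504, 665, 593 and 656 CPM at 10 µg/kg and at 653, 542, 162, 128 and 139 CPM at 30 µg/kg. Replicates 1 and 2 at 30 µg/kg lay with the 10 µg/kg libraries, and replicates 3 to 5 far below every other library. The fitted log2 fold change was -1.34 (SE 0.29, adjusted p = 0.00107, edgeR) at 30 µg/kg and -0.41 (adjusted p = 0.535) at 10 µg/kg. In models of 10 libraries, with vehicle and a single dose, it was called at 10 µg/kg (adjusted p = 0.0390) and not at 30 µg/kg (adjusted p = 0.178). Ugt2b37, whose coding sequence is 94.1% identical to that of Ugt2b38, was at 143, 135, 149.5, 149.8 and 115 CPM in vehicle and at 175, 99.3, 5.63, 9.99 and 22.5 CPM at 30 µg/kg. The same 3 libraries were the lowest, and the gene was not called (log2 fold change -1.15, SE 0.45, adjusted p = 0.0842). It was called without replicate 1 or without replicate 2 of the 30 µg/kg group. Of the 100-base stretches of Ugt2b38, 24.2% recur in Ugt2b5 or Ugt2b37. Ugt2a3, Ugt2b34 and Ugt2b5 had log2 fold changes of -0.77, -0.02 and -0.05 and were not called.

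Markers of the S3 segment were also lowest in replicates 3 to 5 at 30 µg/kg. In the 30 µg/kg replicates 1 to 5 their summed level was 4775, 3099, 1138, 2053 and 2439 CPM, against 3428 to 6729 CPM in vehicle. In vehicle, replicates 1 and 2 had the lowest S3 marker sums, with Ugt2b38 at 871 and 865 CPM. Those 2 libraries also differed from the other vehicle libraries in the marker sums of other cell types. Vehicle replicate 5 had an S3 sum of 5889 CPM, with Ugt2b38 at 592 CPM, its lowest in that group. Of the 10 markers, 4 fell and none rose at 30 µg/kg, and none was at or under 3 counts throughout a group. Of 13 androgen-responsive kidney genes, 9 fell and 2 rose (median log2 fold change -0.68). Among all tested genes, 7.55% fell and 8.39% rose at this dose. The androgen-responsive genes with the lowest adjusted p were Cyp4b1 (-1.06), Slc7a12 (2.59) and Abcc2 (0.52), the last 2 being the only ones that rose. The list does not separate genes that androgens raise from genes that they lower. The part of the S3 markers or the androgen-responsive genes in the fall of Ugt2b38 was not tested. In whole-kidney RNA, fewer cells of a type and less RNA per cell cannot be told apart.

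Ugt8a, which adds galactose to ceramide for myelin lipids and is also made in kidney, was at 127, 122, 146, 151 and 104 CPM in vehicle and at 98.9, 89.5, 40.2, 34.6 and 56.4 CPM at 30 µg/kg. The groups did not overlap, and replicates 3 to 5 were lowest once more. Its log2 fold change was -1.02 (SE 0.19, adjusted p = 1.66e-04, edgeR), and -0.70 between 30 and 10 µg/kg (adjusted p = 0.0327). Ugt3a2, which with Ugt2b38 had the highest level per length among the UGTs in vehicle, was at 1259.5, 1219, 1393, 1487 and 1484 CPM in vehicle and at 1228, 1342, 1180.2, 1089 and 981 CPM at 30 µg/kg. Its fall was small and the groups overlapped (log2 fold change -0.23, SE 0.07, adjusted p = 0.0124). The call was lost without vehicle replicate 4 (adjusted p = 0.0508) or replicate 5 at 30 µg/kg (adjusted p = 0.0705). Ugt3a1 trended downwards (adjusted p = 0.0482), a call that was lost in 26 of the 40 fits without a single library, without the count filter and in the sense column. Its log2 fold change of -0.28 at 30 µg/kg (adjusted p = 0.0939) became a call without the vehicle pair (-0.47).

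**Figure D4:**
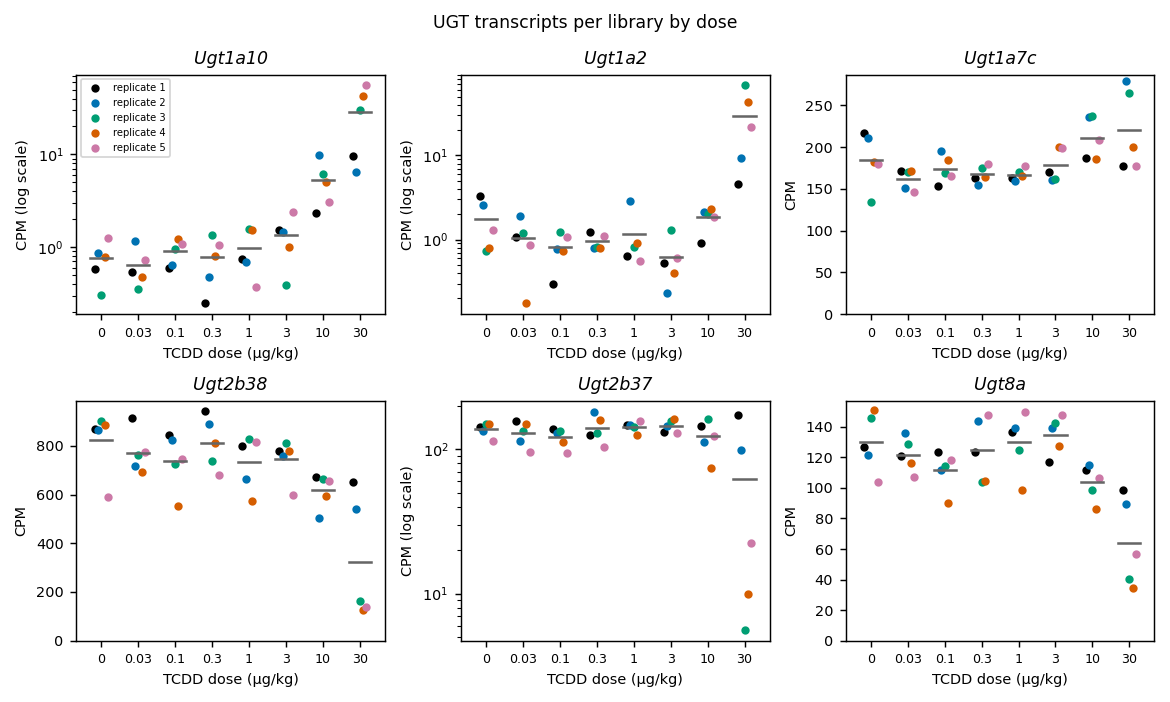
CPM (y axis; log scale for Ugt1a10, Ugt1a2 and Ugt2b37, linear from 0 for the others) of 6 UDP-glucuronosyltransferases in each library against the TCDD dose in µg/kg (x axis; 0 is vehicle); points are libraries coloured by replicate number, grey lines are group means. Ugt1a10 and Ugt1a2 rise and Ugt2b38, Ugt2b37 and Ugt8a are lower in replicates 3 to 5 of the 30 µg/kg group, while replicates 1 and 2 lie nearer to vehicle.

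Of the 7 tested sulfotransferases, Sult5a1 rose and Sult1c2 fell at 30 µg/kg. Sult1d1, the most abundant, was at 623, 574, 638, 499 and 517 CPM in vehicle and at 608, 623, 727, 679.6 and 579 CPM at 30 µg/kg, overlapping groups with a log2 fold change of 0.17 (SE 0.12, adjusted p = 0.373, edgeR). Sult1c2 was at 110.5, 111, 86.3, 91.4 and 101 CPM in vehicle and at 89.9, 115, 62.0, 37.7 and 60.1 CPM at 30 µg/kg. Its replicates 3 to 5 lay below vehicle and replicate 2 above it. The log2 fold change of -0.46 (adjusted p = 0.0336) lost its call without vehicle replicate 1, 2 or 5 or replicate 3, 4 or 5 at 30 µg/kg, and without the vehicle pair (adjusted p = 0.209), which also ended its trend call. Sult5a1, at 1.38, 0.861, 0.734, 2.43 and 1.08 CPM with vehicle and 3.07, 0.961, 3.93, 2.81 and 2.60 CPM with 30 µg/kg, rose by 1.06 (SE 0.37, adjusted p = 0.0404). It kept the call only without vehicle replicate 4 or without replicate 2 at 30 µg/kg among the 10 fits that leave out a single library, and lost it without the vehicle pair (adjusted p = 0.164). Sult1a1 was at 9.26, 14.7, 19.8, 28.5 and 15.0 CPM at 30 µg/kg against 12.7 ± 0.558 CPM in vehicle (log2 fold change 0.46, adjusted p = 0.0860), and Sult1b1, Sult2b1 and Sult6b1 were not called.

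**Figure D5:**
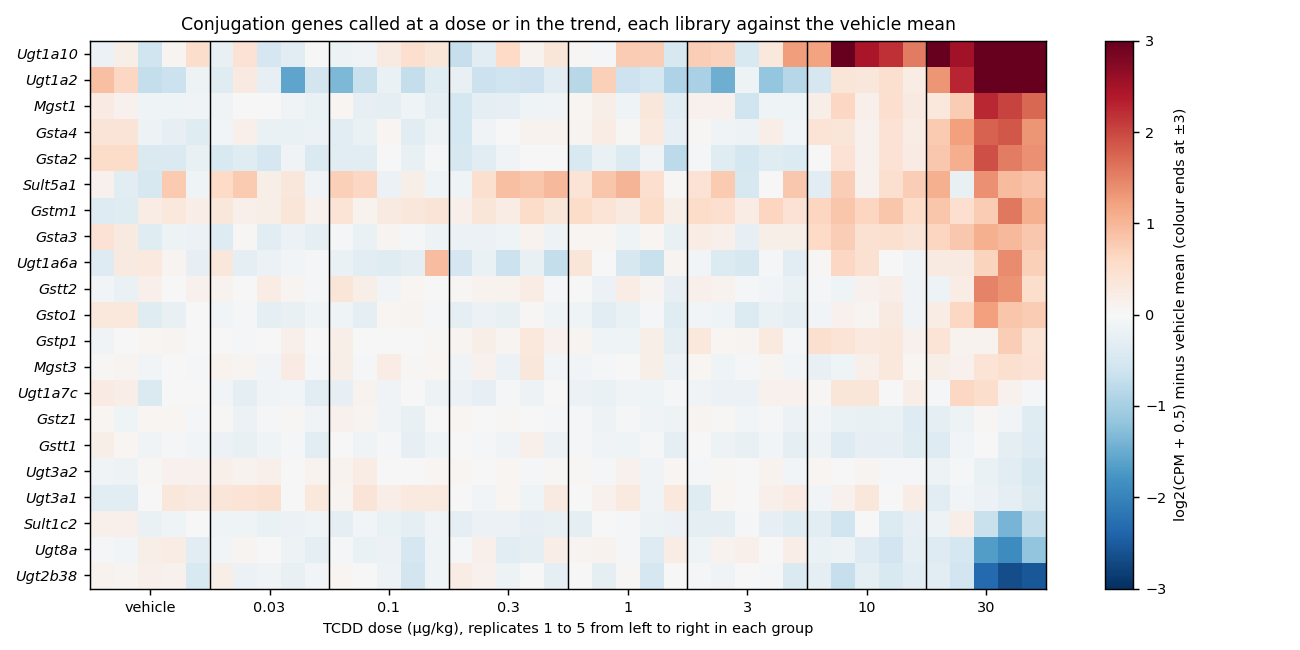
Each of the 40 libraries (columns, replicates 1 to 5 within each dose) for the 21 members called at a dose or in the trend (rows, ordered by log2 fold change at 30 µg/kg); colour is log2(CPM + 0.5) minus the vehicle mean, with the scale ending at ±3. Colour is concentrated in the 30 µg/kg columns and is strongest in replicates 3 to 5, and the first 2 vehicle columns differ from the next 3 for Gsta2, Gsta4, Gsto1, Ugt1a2 and Gstm1.

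As summed CPM, which no test was run on, the GST genes went from 1936 ± 43.1 in vehicle to 2258 ± 136 at 10 µg/kg and 2999.7 ± 580.4 at 30 µg/kg (SD, n = 5). The UGT genes went from 2898 ± 164 to 2696 ± 155 and 2109 ± 456 CPM, and the SULT genes were at 690.4 ± 63.1, 706 ± 113 and 742 ± 59.0 CPM. Within the UGTs, the Ugt1a genes, mostly counts of the uncalled Ugt1a7c, summed to 191 ± 33.5 CPM with vehicle and 284 ± 62.9 CPM with 30 µg/kg, and the Ugt2 genes to 999 ± 149 and 424 ± 331 CPM. At 30 µg/kg the sums ranged from 195 to 368 CPM for Ugt1a and from 159 to 863 CPM for Ugt2, and both overlapped vehicle (139 to 223 and 734 to 1086 CPM).

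The other steps of each conjugation route changed at 30 µg/kg in mixed directions. Beside the list counts below, 8.39% of all tested genes rose and 7.55% fell at this dose. Of 9 tested genes that make or recycle glutathione, 3 rose and 2 fell (median log2 fold change 0.09, against 0.01 over all genes). Gsr, glutathione reductase, rose by 0.64, whereas Gss, glutathione synthetase, changed by -0.46 and Ggct, which cleaves gamma-glutamyl peptides, by -0.60. Of 12 genes of the mercapturic acid pathway, 7 fell and 2 rose (median -0.43). Kyat1, a cysteine conjugate lyase, changed by -0.64, Nat8, which acetylates cysteine conjugates, by -1.08, and the aminopeptidase Lap3 by -0.55. Of 14 genes for peroxide and aldehyde removal, 3 rose and 2 fell (median -0.07), led by Akr1b8 (0.67), Akr1a1 (-0.26) and Gpx3 (0.33).

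For glucuronidation, 5 of 9 genes of UDP-glucuronic acid supply and glucuronide removal fell and 1 rose (median -0.26). Of all tested genes, 8.39% rose and 7.55% fell, which holds for every list here. The riser was Ugdh, which makes UDP-glucuronic acid (0.51), and Miox (-0.57) and Gusb, the beta-glucuronidase (-0.32), fell. For sulfation, 2 of 10 genes rose and 3 fell (median -0.08). Papss2, which makes PAPS, rose by 0.61, and Bpnt1 (-0.43) and Papss1 (-0.34) fell. Of 9 export pumps and anchors for conjugates, 3 rose and none fell (median 0.20), namely Abcc4 (2.56), Abcc3 (1.81) and Abcc2 (0.52). Of 9 genes of the aryl hydrocarbon receptor battery, 6 rose and none fell (median 2.81), led by Cyp1a1 (10.07), Cyp1b1 (3.03) and Nqo1 (1.80). Of 15 tested NRF2 targets 7 rose and 3 fell (median 0.20), led by Nfe2l2 (0.71), Nqo1 (1.80) and Pgd (0.46). All values are log2 fold changes against vehicle with an adjusted p under 0.05 in edgeR's quasi-likelihood test. Among the genes named here, Nqo1, Akr1a1, Miox, Gusb and Abcc2 each stand in more than 1 list. The lists also share genes not named above. Gclc, Gclm, Slc7a11 and G6pdx stand in both the glutathione and NRF2 lists, and Txnrd1 in both the peroxide and NRF2 lists. Acy3 stands in both the mercapturic acid list and the S3 markers.

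Markers of other cell types went both ways at 30 µg/kg, where 8.39% of all tested genes rose and 7.55% fell. Of the tubule markers, 2 of 10 for S1-S2 rose and 4 fell (summed level 14625 to 24636 CPM), 4 of 6 for the collecting duct and 2 of 4 for the distal convoluted tubule fell with none rising, and none of 4 for the thick ascending limb was called. Higher were 6 of 8 macrophage markers (summed level 88.0 to 146 CPM with vehicle and 183 to 241 CPM with 30 µg/kg), 5 of 6 endothelial and 3 of 5 podocyte markers. The 6 adipocyte markers, of which 1 rose and 1 fell, summed to 109 to 286 CPM with vehicle and 269 to 587 CPM with 30 µg/kg. Of 6 tested liver markers 2 rose and 1 fell, and the sum of all 10 overlapped between the groups (86.1 to 242 and 94.3 to 238 CPM). The part of these cell types in the changes of the conjugation genes was not tested.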

How the data were processed

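RNA from right kidneys was sequenced as 150-base read pairs, per the series' design text. The authors deposited whole-number read counts per gene for each of 40 libraries, in STAR's layout; FastQC 0.11.7, Trimmomatic 0.39, STAR 2.7.3a and DESeq2 are named in the submitters' processing notes, together with the builds GRCm39 and mm10 in no stated role. The unstranded column was used because the sense column held 50.352 to 51.044% of stranded counts, so overlapping antisense genes cannot be told apart. In STAR's counting, multimapping reads (6.982 to 9.702% per library) and reads in several genes (5.405 to 5.979%) name no gene and stayed out of library sizes and tests. Unmapped reads (1.410 to 2.663%) and reads in no feature (5.279 to 7.271%) stayed out as well.

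Of 55359 gene identifiers, 52083 were named with GENCODE M21, and the other 3276 held 0.663% of counts. The annotation holds 77 entries with these symbols, of which 8 pseudogenes were left out. Libraries of 1 group never agreed within sampling noise (chi-square per degree of freedom 6.9 to 78.8 over 80 pairs). Genes passing edgeR's filterByExpr were fitted in edgeR 4.0.16 (R 4.3.3, limma 3.58.1) with its quasi-likelihood F-test, robust, on all 40 libraries with 8 groups, TMM scaling (factors 0.966 to 1.09) and 0.125 as prior count. The common biological variation between libraries was 17.1%. Benjamini-Hochberg adjustment ran over all 17345 genes within a comparison. Each SE is the absolute log2 fold change divided by the root of F. CPM are TMM-scaled. The fit was tested on simulated data. Alternatives were DESeq2 1.42.0, its size factors in edgeR, no filter, the sense column, fewer groups, and leaving out each library, vehicle replicates 1 and 2 together, or 3 libraries with adrenal markers together.

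Named were all called members, all Ugt1a genes, undetected members, the 3 members of each family highest per kilobase in vehicle, and up to 3 called genes per pathway list by adjusted p. Libraries are given for vehicle and 30 µg/kg. Gsta1, Ugt2b37, Gstp2 and other uncalled members outside that rule were named after their values were seen. The members and the lists were chosen with earlier results of these data known. A series-wide table of transformed values was not used.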

Additional observations from a re-analysis of the deposited data

Results flagged for a closer look

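In 6 of 168 groups of 5 libraries checked over the called members, a library lay far enough from the other 4 to pass Dixon's 95% limit of 0.71 (gap over range). Chance alone flags about 1 in 20 groups, or 8.4 of 168. For Gsta3, replicate 4 of the 0.3 µg/kg group held 102.561 CPM (nearest other value 86.9) and replicate 3 of the 3 µg/kg group 79.2752 CPM (nearest 104.8). For Ugt1a2, replicate 2 of the 1 µg/kg group held 2.8384 CPM (nearest 0.908), and for Ugt1a6a, replicate 5 of the 0.1 µg/kg group held 4.30096 CPM (nearest 1.72). For Ugt2b38, vehicle replicate 5 held 591.827 CPM (nearest 865) and replicate 5 of the 3 µg/kg group 600.358 CPM (nearest 761). Vehicle replicates 1 and 2 passed this limit for neither Gsta2 nor Gstm1. The check takes the gap to the nearest value, so it cannot flag libraries that lie close to each other, as these did.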

How the results depend on the processing

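No called member's change at 30 µg/kg turned its direction under any alternative run. Gsta2, Gsta3, Gsta4, Gstm1, Gsto1, Mgst1, Mgst3, Ugt1a10 and Ugt1a2 kept their calls at 30 µg/kg against vehicle under every alternative. At 10 µg/kg Gsta3 lost its call in a model of only the vehicle and 10 µg/kg libraries, and Gstm1 without the vehicle pair. The fit to the vehicle and 30 µg/kg libraries alone called those 9 and no member that fell, with 18 at an unadjusted p under 0.05. That model has fewer samples, and its part in the lost calls was not tested. The same kind of fit called 0 members between 30 and 10 µg/kg, so all 9 of those calls were lost, and 5 at 10 µg/kg. DESeq2 called 1 member at 3 µg/kg and the same 18 at 30 µg/kg, and the trend without the 30 µg/kg group called 5. Size factors kept all 18 calls at 30 µg/kg, whereas no filter and the sense column called 16 each. Without vehicle replicates 1 and 2, chosen after seeing the data, 17 members were called at 30 µg/kg, 4 at 10 µg/kg and 19 in the trend. Gsta1 was gained at 30 µg/kg and in the trend, where Sult2a3, Sult2b1 and Ugt1a1 were gained as well. Of these, only Sult2b1 passed the count filter with all libraries. Without the 3 libraries with adrenal markers, also chosen after seeing the data, Gstt1 lost its call at 30 µg/kg (adjusted p = 0.0513), Ugt3a2 between 30 and 10 µg/kg and Ugt3a1 in the trend.

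Leaving out each library in turn gave 0 to 1 calls at 3 µg/kg (1 without replicate 1 of that group, Sult2a3), 3 to 5 at 10 µg/kg (3 without vehicle replicate 1 or without replicate 2 of that group), 14 to 22 at 30 µg/kg, 6 to 16 between 30 and 10 µg/kg (16 without replicate 1 at 30 µg/kg) and 14 to 21 in the trend. At 0.03, 0.1, 0.3 and 1 µg/kg it gave 0 throughout. Sult2a3 is near the floor, with at most 19 counts in any library, and failed the count filter with all libraries. Its call at 3 µg/kg was a fall to the 0 CPM of replicates 2 to 5. The filter was run anew in each of these fits. The counts at 30 µg/kg, between 30 and 10 µg/kg and in the trend can thus include members not tested with all libraries, such as Gsta1. No paired analysis was possible because the labels give no replicate numbers. Depth limited the low members: Ugt1a10 rested on 7 to 22 counts per vehicle library, and Gsta1 and Ugt1a1 did not pass the filter, although Gsta1 was called at 30 µg/kg without it and Ugt1a1 in the sense column.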
